A study of Saccharomyces cerevisiae with 8 samples.

Results

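The diauxic shift was followed in yeast that carried the Gcr1(U) form of Gcr1, as the change in transcript levels between 12 h and 6 h of culture. The members are all genes of the expression table in strain U, JHY9100, which the labels give as BY4741 with a GCR1 deletion of 1 to 574. The table has 7126 rows, of which 6339 passed a filter of a mean of at least 1 FPKM over all 8 libraries and were tested. Of these 8 libraries, 4 belong to strain U: 2 taken at 12 h, after the diauxic shift, and 2 taken at 6 h, in exponential phase. The other 4 come from strain S, JHY9200, BY4741 with a GCR1 deletion of 4 to 742, at the same times, and were used to estimate the spread and to test whether a change differed between the strains. The labels do not say from where these positions are counted. BY4741 is a laboratory haploid of mating type a. Its cells were grown without treatment in 10 mL of YPD, a rich medium with 2% glucose, in a flask of 50 mL at 30 °C with shaking at 170 rpm, from an OD600 of 0.5. The labels do not say that replicates were separate cultures, so the p-values measure only the spread between these libraries, which may be technical.

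Budding yeast ferments glucose to ethanol even where oxygen is plentiful, and respires the ethanol once the glucose is gone. This switch, the diauxic shift, is known for the release of glucose repression, a turn from glycolysis to gluconeogenesis, the build-up of mitochondria and stress protection, and a retreat of ribosome production. Gcr1 is known as an activator of glycolytic genes and, with Rap1, of ribosomal protein genes. The kinase Snf1 and the activators Cat8, Sip4, Adr1 and Hap4 act on the side of respiration, while protein kinase A and TOR act on the side of growth and against the stress factors Msn2 and Msn4.

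Levels were given as FPKM, a unit in which fragments are divided by transcript length and by the mapped total of the library. The FPKM of the 4 U libraries summed to 1509870 to 1543337, and the read depth is unknown. FPKM are relative to the rest of the library, so a fall of a transcript cannot be told apart from a rise of the others. A change of the whole RNA content per cell is not seen in them. A change within cells and a change in the mixture of cells cannot be told apart either. The strain labels were checked on marker genes: LEU2, URA3 and MET17, which BY4741 lacks, were listed at 0 in all 4 U libraries. HIS3, of which BY4741 carries a partial deletion, stood at 70.6 and 111 FPKM at 12 h and at 132 and 283 FPKM at 6 h. The a-type genes MFA1, MFA2 and STE2 stood at 151 to 2234 FPKM and BAR1 at 35.8 to 176, while the alpha-type genes MF(ALPHA)1 and STE3 stood at 0.61 to 10.4. Of the 4 alpha-type genes listed, 2 averaged at least 10 FPKM over the 8 libraries, so not all of the 4 were near 0. Of the same 4 genes, 3 rose. Together the 4 held 0.00646% and 0.00687% of the summed FPKM at 12 h, against 0.00297% and 0.00308% at 6 h. The first principal component of the 4 libraries held 87.8% of the variance and separated the times. The libraries of a time also differed: the median absolute log2 difference between replicates was 0.19 at 12 h and 0.27 at 6 h, and 217 genes at 12 h and 488 at 6 h differed by at least 1. The genes of chaperones, trehalose and glycogen were higher in replicate 1 at 6 h, as given below beside each group.

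The times were compared with limma on log2(FPKM + 1), so fold changes of low genes are understated, and a gene was called at an adjusted p under 0.05 (Benjamini-Hochberg over all genes tested). Of 6339 genes, 3503 changed between 12 h and 6 h (55.3%), 2126 of them higher (33.5%) and 1377 lower (21.7%) at 12 h. Changes of at least 2-fold numbered 1374 upward and 934 downward, those of at least 4-fold 542 and 378, and those of at least 16-fold 121 and 31. Both 12 h libraries stood above both 6 h libraries for 3116 genes and below them for 2023, together 81.1% of genes, against the 55.3% that passed the test. The median log2 fold change over all genes was 0.26. Median-of-ratios scaling brought it to 0.02 and quantile normalization to -0.03, and with these scalings 48.5% and 47.1% of the called genes were higher at 12 h, against 60.7% for the values as deposited. The balance of rises and falls depended on the scaling, and each change is to be read against the median of 0.26. Where a gene is said to rise or fall by a value, the value is a log2 fold change. Without 12 h replicate 1 the count of called genes was 2335, and without each of the other U libraries it was 2389 to 3001.

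Of the 15 largest rises, 5 were in the list of gluconeogenesis and the glyoxylate cycle and 5 in that of hydrophilins and stationary phase genes. SIP18, a hydrophilin, reached 53845 and 37572 FPKM at 12 h, against 15.3 and 19.4 FPKM at 6 h (log2 fold change 11.27, SE 0.31, adjusted p = 1.34e-05). PCK1, phosphoenolpyruvate carboxykinase, which commits carbon to gluconeogenesis, stood at 7348 and 9225 FPKM at 12 h, against 3.26 and 4.51 FPKM at 6 h (log2 fold change 10.73, SE 0.24, adjusted p = 5.99e-06). RGI2, known to be induced in respiratory growth, stood at 1518 and 2612 FPKM at 12 h, against 0 and 0.75 FPKM at 6 h. It was listed at 0 in one 6 h library, so its log2 fold change of 10.56 rests on the pseudocount. In each of these genes both 12 h libraries stood above both 6 h libraries by a wide margin. The other genes among the 15 largest rises were SFC1, MLS1, SPG4, DPA10, FBP1, IDP2, SPG1, JEN1, PUT4, GRE1, YGR067C and DDR2, with log2 fold changes of 7.39 to 10.33. Among them DPA10 varied most at 12 h, with 950 and 8829 FPKM at 12 h, against 2.55 and 2.59 FPKM at 6 h. DDR2, a stress gene at 11178 and 10194 FPKM at 12 h, against 73.5 and 53.1 FPKM at 6 h, had a standard error of 2.04, since the fit pools the spread of all groups and its S libraries at 6 h held 150 and 0 FPKM, and did not pass when any single U library was left out (adjusted p of 0.0634 to 0.0919) or with a pseudocount of 0.1 (0.0762).

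The 15 largest falls included 3 hexose transporter genes and 2 genes each of glycolysis, purine synthesis and ribosomal proteins. ENO2, the glycolytic enolase, fell to 43.1 and 78 FPKM at 12 h, against 6586 and 4856 FPKM at 6 h (log2 fold change -6.58, SE 0.30, adjusted p = 5.32e-05). SAM1, S-adenosylmethionine synthetase, fell to 5.39 and 7.9 FPKM at 12 h, against 361 and 582 FPKM at 6 h (log2 fold change -5.93, SE 0.38, adjusted p = 0.000143). IMD2, an IMP dehydrogenase of guanine nucleotide synthesis, fell to 2.1 and 1.25 FPKM at 12 h, against 121 and 189 FPKM at 6 h (log2 fold change -5.85, SE 0.35, adjusted p = 0.000118). The 12 h libraries lay below the 6 h libraries in all 3 genes without overlap. INA1, DBP2, HXT3, GPP1, CDC19, RPL9A, ADE17, HXT4, UTR2, RPS22A and HXT1 had log2 fold changes of -6.13 to -4.76. SNR18, a small nucleolar RNA inside an intron of EFB1, was listed at 0 in both 12 h libraries and at 4386 and 4361 FPKM at 6 h, and is given no fold.

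**Figure D1:**
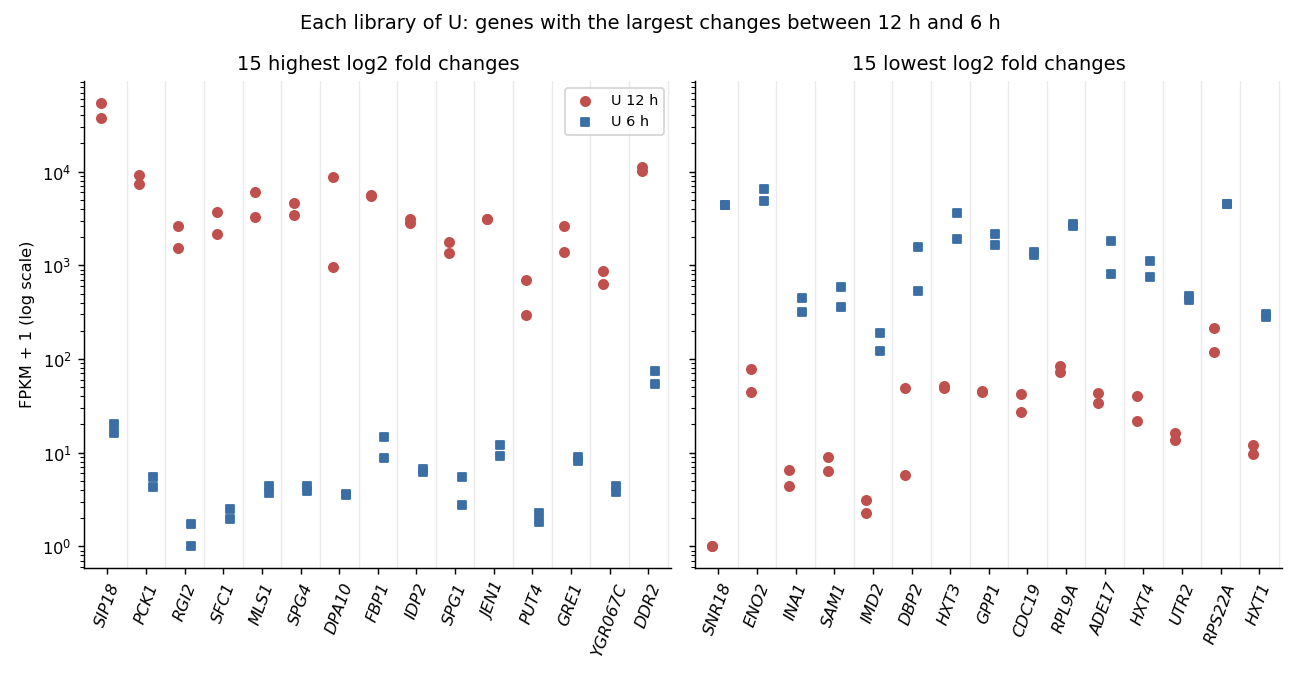
FPKM + 1 (log axis) of the 15 genes with the largest rises and the 15 with the largest falls in each of the 4 U libraries, with 12 h as circles and 6 h as squares. The circles lie above both squares in every gene of the left panel and below them in every gene of the right panel, and DPA10 and DBP2 show the widest gap between the 12 h libraries.

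The most abundant transcripts were exchanged as well. At 12 h the highest mean levels were those of SIP18, HSP12, SPO24, HSP26 and QCR9. HSP12, a small membrane-binding stress protein, stood at 52870 and 32622 FPKM at 12 h, against 499 and 816 FPKM at 6 h (log2 fold change 6.02, SE 0.43, adjusted p = 0.000198). SPO24 stood at 19510 and 22628 FPKM at 12 h, against 1356 and 2712 FPKM at 6 h. At 6 h the highest were CCW12, CWP2, TDH3, FBA1 and RPS30B. CCW12, a cell wall mannoprotein, stood at 10512 and 9885 FPKM at 12 h, against 30069 and 34318 FPKM at 6 h, which was still a high level after its fall (log2 fold change -1.66, SE 0.21, adjusted p = 0.00127). TDH3, the main glyceraldehyde-3-phosphate dehydrogenase, fell much further, to 1482 and 1774 FPKM at 12 h, against 15494 and 9875 FPKM at 6 h (log2 fold change -2.93, SE 0.28, adjusted p = 0.000473).

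Enzymes of gluconeogenesis and the glyoxylate cycle, which build sugar and C4 acids from acetate, rose in 10 of 11 genes and fell in 1. Their median log2 fold change was 7.06, against 0.26 for all genes. The fall, at -1.52, did not keep its call in every setting with 1 U library left out. MLS1, malate synthase of the glyoxylate cycle, stood at 3261 and 6026 FPKM at 12 h, against 3.41 and 2.71 FPKM at 6 h (log2 fold change 10.10, SE 0.48, adjusted p = 5.8e-05). FBP1, fructose-1,6-bisphosphatase, stood at 5490 and 5596 FPKM at 12 h, against 7.86 and 13.5 FPKM at 6 h (log2 fold change 8.93, SE 0.25, adjusted p = 1.34e-05). ICL1, isocitrate lyase, stood at 2671 and 6173 FPKM at 12 h, against 23.7 and 36.5 FPKM at 6 h (log2 fold change 7.06, SE 0.69, adjusted p = 0.000512). The 12 h libraries lay far above the 6 h libraries in each, and replicate 2 was the higher of the 12 h libraries in all 11 genes, by a median of 0.75 on the log2 scale. SFC1, the succinate-fumarate carrier, IDP2, cytosolic isocitrate dehydrogenase, and AGX1, which makes glycine from glyoxylate, rose by 10.33, 8.87 and 7.02. CIT2, MDH2 and ICL2 rose by 3.52 to 4.91.

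The activators Cat8 and Sip4 are known to bind the carbon source responsive element, here searched on both strands as a simplified form, CC and CCG with any 6 bases between them. In the 500 bases before the start codon, a window chosen after the data were seen, this form stood in 8 of 11 gluconeogenic genes (72.7%), in 55.6% of 18 TCA cycle genes and in 34.1% of 493 genes that rose at least 4-fold. It stood in 23.5% of 341 genes that fell at least 4-fold and in 20.6% of all 5749 protein-coding genes tested. In the window from 250 bases before to 50 after the start, the shares were 9.09% of gluconeogenic genes and 10.3% of all, so the matches of this group lay farther upstream. Stretches around the matches of 4 genes are shown: PCK1, ICL1 and MLS1 from the group with the largest median rise, and ACS1, which makes the acetyl-CoA these enzymes use. Capitals mark the match, or its reverse complement for the second PCK1 stretch, and the sequences are from RefSeq R64, each on the strand of its gene. The window can reach into a neighbouring gene, and a match is a description of letters, not a bound site. The matches shown begin at 481 and 362 bases before the start codon of PCK1, at 398 in ICL1, at 500 in MLS1 and at 371 in ACS1.
PCK1 (chrXI:630656-630696, plus strand): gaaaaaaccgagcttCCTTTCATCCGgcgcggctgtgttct
PCK1 (chrXI:630775-630815, plus strand): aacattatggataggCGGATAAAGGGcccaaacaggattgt
ICL1 (chrV:287287-287327, minus strand): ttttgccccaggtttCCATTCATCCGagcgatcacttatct
MLS1 (chrXIV:405843-405883, plus strand): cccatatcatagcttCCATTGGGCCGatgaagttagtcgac
ACS1 (chrI:45368-45408, minus strand): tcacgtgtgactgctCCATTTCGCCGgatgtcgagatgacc

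Genes for the uptake and use of ethanol, acetate and lactate rose in 10 of 14 cases, none fell, and the median was 4.18. JEN1, the lactate and pyruvate permease, stood at 3157 and 3139 FPKM at 12 h, against 11.1 and 8.14 FPKM at 6 h (log2 fold change 8.23, SE 0.25, adjusted p = 1.84e-05). ADY2, an acetate transporter, stood at 290 and 1522 FPKM at 12 h, against 5.71 and 5.46 FPKM at 6 h (log2 fold change 6.66, SE 0.93, adjusted p = 0.00181), and ACH1, a mitochondrial CoA transferase acting on acetate, at 2709 and 3357 FPKM at 12 h, against 49.2 and 24.4 FPKM at 6 h (log2 fold change 6.40, SE 0.44, adjusted p = 0.000178). JEN1 was nearly equal in the 12 h libraries, while ADY2 was several times higher in replicate 2. ACS1, an acetyl-CoA synthetase, stood at 347 and 907 FPKM at 12 h, against 8.46 and 8.12 FPKM at 6 h (log2 fold change 5.92, SE 0.63, adjusted p = 0.000663), whereas ACS2, the isoform of glucose growth, stood at 286 and 641 FPKM at 12 h, against 199 and 213 FPKM at 6 h and did not pass (adjusted p = 0.153). ADH2, the alcohol dehydrogenase that oxidizes ethanol, stood at 357 and 2547 FPKM at 12 h, against 21.3 and 39.7 FPKM at 6 h (log2 fold change 4.99, SE 1.30, adjusted p = 0.0182). Its 12 h libraries differed widely, and it did not pass without 12 h replicate 2, 6 h replicate 1 or 6 h replicate 2 (adjusted p of 0.0975, 0.0721 and 0.0536). ALD6, cytosolic acetaldehyde dehydrogenase, rose to 2060 and 2077 FPKM at 12 h, against 466 and 67.1 FPKM at 6 h, and its call was lost without either 12 h library or 6 h replicate 2 (adjusted p of 0.126 to 0.176). The D-lactate dehydrogenase genes DLD2 and DLD3 and ATO3 did not pass, with log2 fold changes of -0.07, -0.57 and -0.55; DLD3 passed as lower with both other scalings (adjusted p of 0.0314 and 0.0486).

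The regulators of these pathways moved unequally. Of 35 regulators of carbon metabolism, 19 rose, 4 fell and 12 did not pass. SIP4 and CAT8, the zinc cluster activators of gluconeogenic genes, both rose. SIP4 stood at 116 and 222 FPKM at 12 h, against 1.13 and 1.9 FPKM at 6 h (log2 fold change 6.02, SE 0.51, adjusted p = 0.000323). CAT8 stood at 72.3 and 45.6 FPKM at 12 h, against 3.92 and 2.14 FPKM at 6 h (log2 fold change 3.89, SE 0.36, adjusted p = 0.000441). They were low in both 6 h libraries, with the higher 12 h value in replicate 2 for SIP4 and in replicate 1 for CAT8. ADR1, the activator of ADH2 and of peroxisomal genes, stood at 154 and 156 FPKM at 12 h, against 13.4 and 8.68 FPKM at 6 h (log2 fold change 3.72, SE 0.38, adjusted p = 0.000594). HAP4, the activating subunit of the CCAAT-binding complex, stood at 1241 and 984 FPKM at 12 h, against 161 and 102 FPKM at 6 h (log2 fold change 3.09, SE 0.39, adjusted p = 0.0012), while the DNA-binding subunits HAP2, HAP3 and HAP5 rose by 0.81, 1.16 and 1.45. All of these were higher in both 12 h libraries. HAP5 did not pass without 12 h replicate 2 or 6 h replicate 2 (adjusted p = 0.0661 and 0.0654).

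REG2, a subunit that directs the phosphatase Glc7, rose to 786 and 785 FPKM at 12 h, against 11 and 16.9 FPKM at 6 h (log2 fold change 5.75, SE 0.23, adjusted p = 3.88e-05), while its relative REG1 rose by 0.84 and did not pass without 12 h replicate 1 or 6 h replicate 2 (adjusted p = 0.0791 and 0.0741). SNF1 and SNF4, the catalytic and the activating subunit of the Snf1 kinase, did not pass. SNF1 stood at 83.8 and 92.1 FPKM at 12 h, against 80.2 and 74.5 FPKM at 6 h (log2 fold change 0.18), and SNF4 at 164 and 191 FPKM at 12 h, against 172 and 140 FPKM at 6 h (log2 fold change 0.19). Of the beta subunits SIP2 rose by 3.23, SIP1 by 0.46 and GAL83 had -0.46, which passed only with median-of-ratios scaling (adjusted p = 0.0447); SIP1 lost its call when any U library was left out (adjusted p of 0.0613 to 0.111) and with both other scalings (0.18 and 0.466). MIG1, MIG2 and MIG3, repressors that act in glucose repression, had -0.07, 0.18 and -0.02 and did not pass. STD1, which acts with Rgt1 on hexose transporter genes, fell to 11.8 and 12 FPKM at 12 h, against 63.1 and 94.2 FPKM at 6 h (log2 fold change -2.60, SE 0.25, adjusted p = 0.00048), whereas its paralog MTH1 rose by 1.49 and RGT1 by 1.72. TOS3 and TDA1, kinases, and NRG2, a repressor, fell, with log2 fold changes of -1.55, -1.32 and -1.28. Each of these 3 calls was lost when some single library was left out: without 12 h replicate 1 or 6 h replicate 2 for TOS3 (adjusted p = 0.0599 and 0.0665), without 12 h replicate 2 or 6 h replicate 2 for TDA1 (0.0781 and 0.071), and without any U library for NRG2 (0.0673 to 0.131). Only 1 regulator was called lower without 6 h replicate 2, and 2 were without either 12 h library.

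**Figure D2:**
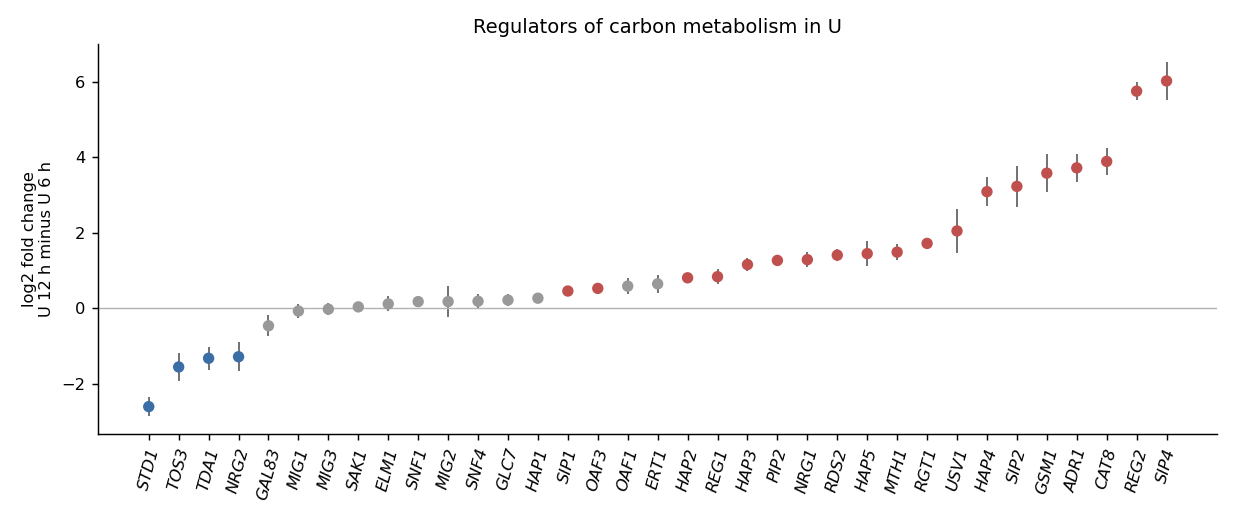
Log2 fold change (12 h minus 6 h, y axis) of the 35 regulators of carbon metabolism in U, ordered by size, with standard errors of the fit as bars. Red marks the 19 genes called higher, blue the 4 called lower and grey the 12 not called, and SIP4 at 6.02 and STD1 at -2.60 are the ends of the range.

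Glycolytic transcripts moved the other way. Of 18 genes 13 fell and none rose, with a median log2 fold change of -2.21, and the group held 0.564% and 0.696% of the summed FPKM at 12 h, against 4.15% and 3.31% at 6 h. CDC19, the main pyruvate kinase, fell to 25.9 and 41.2 FPKM at 12 h, against 1279 and 1384 FPKM at 6 h (log2 fold change -5.30, SE 0.23, adjusted p = 4.23e-05). GPM1, phosphoglycerate mutase, fell to 444 and 730 FPKM at 12 h, against 9221 and 7373 FPKM at 6 h (log2 fold change -3.85, SE 0.31, adjusted p = 0.000275), and FBA1, aldolase, to 807 and 2108 FPKM at 12 h, against 12387 and 12603 FPKM at 6 h (log2 fold change -3.26, SE 0.42, adjusted p = 0.00131). The 12 h libraries lay below the 6 h libraries in all 13 genes called. The smallest called fall was that of PFK1, a subunit of phosphofructokinase, at -1.28. The genes that did not pass were the hexose kinases GLK1, HXK1 and EMI2, the second pyruvate kinase PYK2 and TDH1, at 2.46, -0.12, 0.03, 1.06 and -0.60. These 5 were all higher in replicate 1 than in replicate 2 at 6 h, as were 14 of all 18 glycolytic genes. The median log2 difference of the replicates over the 18 genes was 0.38 at 6 h. GLK1 stood at 1976 and 1618 FPKM at 12 h, against 683 and 155 FPKM at 6 h, and overlaps YCL042W. Without both 6 h libraries numbered 1, of U and of S, a setting chosen after the data were seen, GLK1 and PYK2 passed as higher (adjusted p = 0.000993 and 0.00274). GLK1 also passed in a fit to the U libraries alone (adjusted p = 0.0426).

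Transcripts for the main enzymes of ethanol formation fell with those of glycolysis. PDC1, pyruvate decarboxylase, fell to 256 and 264 FPKM at 12 h, against 6445 and 4794 FPKM at 6 h (log2 fold change -4.41, SE 0.24, adjusted p = 8.71e-05), and ADH1, the alcohol dehydrogenase that makes ethanol, to 354 and 663 FPKM at 12 h, against 7322 and 6304 FPKM at 6 h (log2 fold change -3.81, SE 0.31, adjusted p = 0.000275). Both genes had clearly separated times. PDC6, a minor pyruvate decarboxylase, rose to 11 and 10.1 FPKM at 12 h, against 0.4 and 0.63 FPKM at 6 h (log2 fold change 2.94, SE 0.30, adjusted p = 0.000583), and ADH3, the mitochondrial alcohol dehydrogenase, rose by 1.01 but not without 12 h replicate 2 or either 6 h library (adjusted p of 0.0536 to 0.066). Of 8 genes listed for ethanol formation, 2 rose and 3 fell, the third being ADH4 at -0.79. Over all genes 33.5% rose and 21.7% fell.

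Of 17 hexose transporter and sensor genes tested, 8 rose and 4 fell, against 33.5% and 21.7% of all genes. The share of falls was thus near that of all genes. HXT3, a low-affinity transporter of glucose growth, fell to 50.9 and 47.8 FPKM at 12 h, against 1920 and 3600 FPKM at 6 h (log2 fold change -5.71, SE 0.39, adjusted p = 0.000169), and HXT4, HXT1 and HXT2 fell, with log2 fold changes of -4.95, -4.76 and -4.06. HXT5, the transporter of slow growth, rose to 2035 and 1954 FPKM at 12 h, against 17.4 and 17.7 FPKM at 6 h (log2 fold change 6.75, SE 0.15, adjusted p = 5.99e-06). SNF3, the high-affinity glucose sensor, rose to 96.2 and 70.6 FPKM at 12 h, against 12.5 and 14.6 FPKM at 6 h (log2 fold change 2.52, SE 0.24, adjusted p = 0.000465). HXT6 rose by 7.26 and HXT7 had 0.45, but 94.9% of the 100-base windows of HXT6 also occur in HXT7, so the split between them is uncertain. The other rises, of HXT8, HXT11, HXT12, HXT15 and RGT2, were at most 1.24 in size and none of them passed with quantile normalization, with which 3 genes of the group rose; 5 rose with median-of-ratios scaling, and 4 without 12 h replicate 1 or without 6 h replicate 2. PFK26 and FBP26, which make and degrade fructose-2,6-bisphosphate, an activator of glycolysis, rose by 2.40 and 2.01, while PFK27, the second enzyme of its synthesis, fell by 3.60.

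Gcr1 is known to bind the letters CTTCC beside Rap1 sites. Searched on both strands from 250 bases before to 50 after the start, CTTCC stood in 55.6% of the 18 glycolytic genes, in 44.3% of the 341 genes that fell at least 4-fold and in 46.1% of all 5749 genes. In the 500 bases before the start codon it stood in 88.9% of the glycolytic genes, 66.3% of those that fell at least 4-fold and 65.6% of all. Stretches of 3 glycolytic genes with 1 match each in capitals are shown because these genes had some of the largest falls and are textbook targets of Gcr1. The matches shown begin at 170 bases before the start codon of ENO2, at 292 in CDC19 and at 448 in PGK1. The PGK1 stretch holds a further CTTCC in lower case.
ENO2 (chrVIII:451142-451176, plus strand): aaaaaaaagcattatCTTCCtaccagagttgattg
CDC19 (chrI:71479-71513, plus strand): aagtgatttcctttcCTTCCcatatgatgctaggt
PGK1 (chrIII:137283-137317, plus strand): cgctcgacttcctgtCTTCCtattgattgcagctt

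Nearly all genes of the TCA cycle and the respiratory chain rose. Of 18 TCA cycle genes 17 rose and none fell (median 3.67), and the group held 2.72% and 2.86% of the summed FPKM at 12 h, against 0.256% and 0.174% at 6 h. SDH2, the iron-sulfur subunit of succinate dehydrogenase, stood at 5276 and 5710 FPKM at 12 h, against 199 and 120 FPKM at 6 h (log2 fold change 5.14, SE 0.45, adjusted p = 0.000355). CIT1, mitochondrial citrate synthase, stood at 3905 and 4660 FPKM at 12 h, against 286 and 95.4 FPKM at 6 h (log2 fold change 4.68, SE 0.75, adjusted p = 0.00301), and KGD1, of the 2-oxoglutarate dehydrogenase complex, at 1195 and 1060 FPKM at 12 h, against 65.1 and 43.2 FPKM at 6 h (log2 fold change 4.38, SE 0.35, adjusted p = 0.000263). The 12 h libraries were nearly equal in these genes and far above the 6 h libraries. PYC1, pyruvate carboxylase, rose by 5.97 while its paralog PYC2 had 0.17 and did not pass. The smallest called rise was that of LSC1, a subunit of succinyl-CoA ligase, at 0.97, which did not pass without 12 h replicate 2 or 6 h replicate 2 (adjusted p = 0.0815 and 0.0827).

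All 9 tested nuclear genes of complex III rose, as did 9 of 10 of complex IV and all 17 of the ATP synthase and its regulators. Their medians were 3.29, 3.48 and 2.79, and the members ranged from 2.95 to 3.93 in complex III, from -0.90 to 6.12 in complex IV and from 2.33 to 3.86 in the ATP synthase. QCR9, a small subunit of complex III, stood at 12960 and 13760 FPKM at 12 h, against 1192 and 857 FPKM at 6 h (log2 fold change 3.72, SE 0.31, adjusted p = 0.000323). COX6, subunit VI of cytochrome oxidase, stood at 4009 and 4197 FPKM at 12 h, against 400 and 334 FPKM at 6 h (log2 fold change 3.48, SE 0.17, adjusted p = 6.51e-05), and ATP7, of the stalk of the ATP synthase, at 4723 and 4834 FPKM at 12 h, against 677 and 539 FPKM at 6 h (log2 fold change 2.98, SE 0.21, adjusted p = 0.00018). COX26, a small subunit, rose most in complex IV, by 6.12. COX5B, the subunit isoform of low oxygen, was the exception at 208 and 112 FPKM at 12 h, against 342 and 237 FPKM at 6 h, with -0.90 that did not pass (adjusted p = 0.247). CYC1, cytochrome c isoform 1, rose to 3879 and 3824 FPKM at 12 h, against 371 and 271 FPKM at 6 h (log2 fold change 3.60, SE 0.26, adjusted p = 0.0002). NDE2 and NDE1, external NADH dehydrogenases, rose by 6.48 and 2.02, and NDI1, the internal one, by 3.80. The ATP synthase genes took 5.07% and 5.11% of the summed FPKM at 12 h, against 0.798% and 0.681% at 6 h.

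The CCAAT element, bound by the Hap2/3/4/5 complex, was searched on both strands from 250 bases before to 50 after the start. It stood in 90.0% of 10 complex IV genes, 88.2% of 17 ATP synthase genes, 77.8% of 9 complex III genes and 66.7% of 18 TCA cycle genes, against 43.7% of all 5749 genes. In 493 genes that rose at least 4-fold the share was 53.1%, and in 341 that fell as much it was 39.6%.

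Supporting parts of the mitochondrion moved by smaller amounts. Of 26 assembly factors 23 rose (median 1.26), COX20 and COX17, of cytochrome oxidase assembly, by 3.03 and 2.66. With median-of-ratios scaling 20 of the 26 rose and with quantile normalization 21. Fewer than 23 kept the call with any single U library left out. Of 66 genes of the mitochondrial ribosome 60 rose and none fell, with a median of 0.85 and a largest value of 1.81 for MRPL51, which overlaps YPR099C on the other strand. Of these genes 43 passed with median-of-ratios scaling, and 38 without 12 h replicate 2. Of 25 mitochondrial carriers and pores 10 rose and 7 fell, shares near the 33.5% and 21.7% of all genes. Their median was 0.38, against 0.26 for all genes, and 0.16 to 0.41 with single U libraries left out. CRC1, the carnitine carrier, rose to 234 and 750 FPKM at 12 h, against 2.55 and 1.56 FPKM at 6 h (log2 fold change 7.12, SE 0.78, adjusted p = 0.000739). PET9, the main ADP/ATP carrier, rose to 5096 and 5297 FPKM at 12 h, against 796 and 700 FPKM at 6 h (log2 fold change 2.80, SE 0.16, adjusted p = 0.000109), while AAC3, the isoform of low oxygen, fell to 0.45 and 0.95 FPKM at 12 h, against 25 and 16.8 FPKM at 6 h (log2 fold change -3.68, SE 0.37, adjusted p = 0.000577). OAC1, the oxaloacetate carrier, fell by 1.99.

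Genes for fatty acid breakdown in the peroxisome and for moving acetyl groups with carnitine rose in 16 of 19 cases (median 2.78). CAT2 and YAT1, carnitine acetyltransferases, rose by 5.66 and 6.40. POT1, the thiolase of beta-oxidation, stood at 266 and 209 FPKM at 12 h, against 7.22 and 7.26 FPKM at 6 h (log2 fold change 4.84, SE 0.19, adjusted p = 3.88e-05), and FOX2, the multifunctional enzyme before it, at 151 and 175 FPKM at 12 h, against 13.9 and 12.6 FPKM at 6 h (log2 fold change 3.52, SE 0.22, adjusted p = 0.000131). Both were at similar levels in the libraries of a time. FAA1, DCI1 and ANT1 did not pass (1.18, 0.35 and 0.35). Of 26 peroxisome biogenesis genes 23 rose (median 1.04), with PEX18, an import receptor partner, at 3.09 and PEX11, which drives division, at 2.01. With median-of-ratios scaling 18 of the 26 rose and with quantile normalization 19. Fewer than 23 kept the call with any single U library left out.

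**Figure D3:**
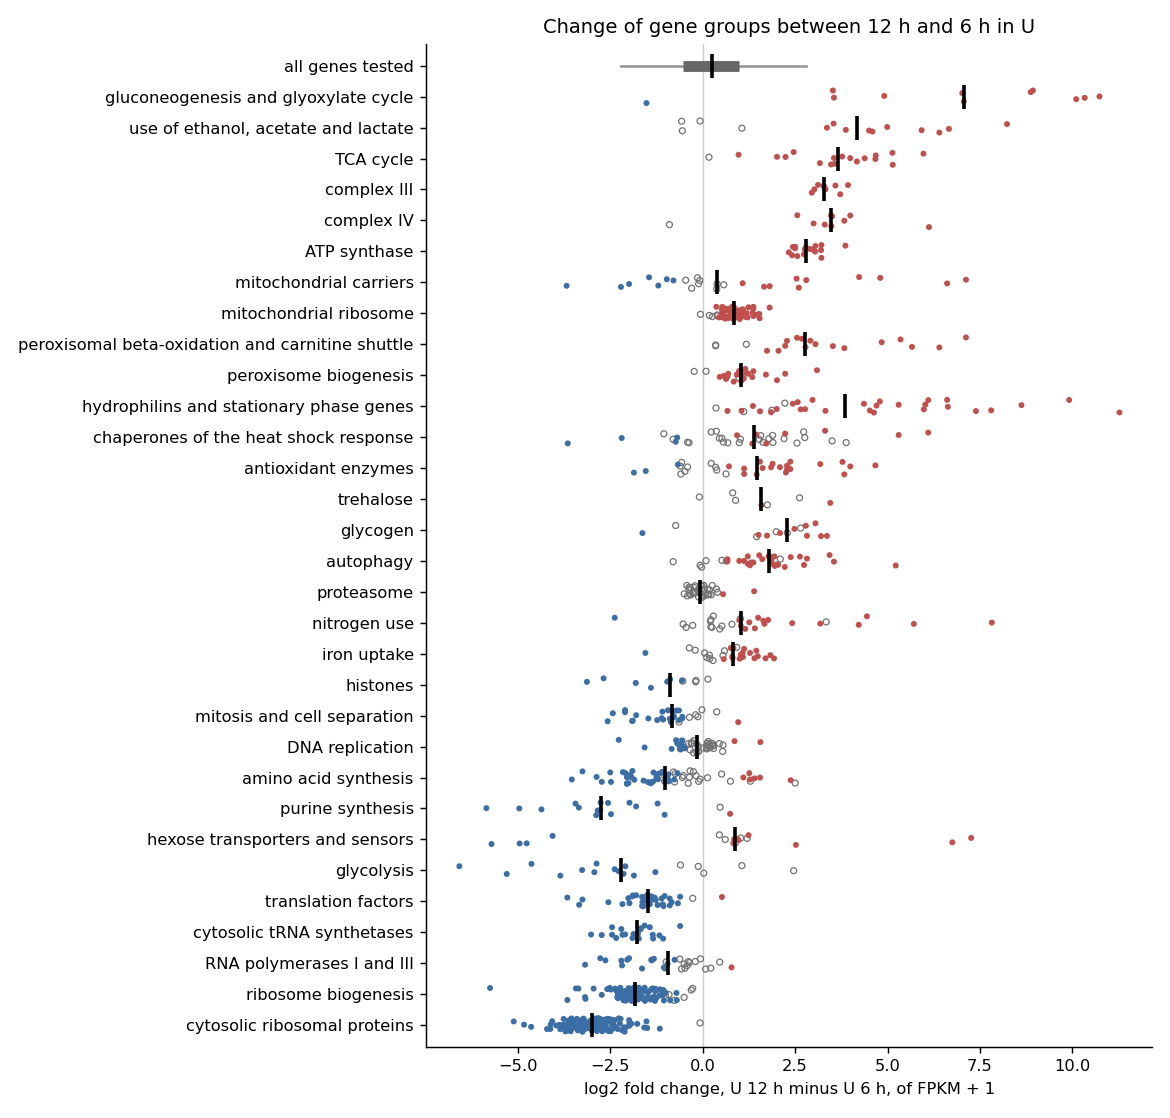
Log2 fold change (12 h minus 6 h in U, x axis) of each tested member of 31 gene groups, one point per gene, with filled red and blue points for genes called higher and lower and open points for genes not called. Black ticks are group medians; the top row shows all 6339 genes, with the median at 0.26, the middle 50% as a thick bar and 5th to 95th percentiles as a thin bar. Medians run from 7.06 for gluconeogenesis to -2.99 for ribosomal proteins.

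Genes of cytosolic ribosomal proteins fell in 132 of 134 cases and rose in none, with a median log2 fold change of -2.99. They held 3.49% and 5.31% of the summed FPKM at 12 h, against 32.1% and 31.3% at 6 h. The 12 h libraries were far below the 6 h libraries, and at 12 h replicate 1 was below replicate 2 in 133 of 134 genes by a median of 0.68 on the log2 scale. RPS22A fell to 119 and 212 FPKM at 12 h, against 4565 and 4513 FPKM at 6 h (log2 fold change -4.83, SE 0.30, adjusted p = 0.000131). RPS30B, the most abundant at 6 h, fell only to 3377 and 5186 FPKM at 12 h, against 11940 and 11744 FPKM at 6 h (log2 fold change -1.50, SE 0.26, adjusted p = 0.00413). RPL15B stood at 140 and 149 FPKM at 12 h, against 128 and 178 FPKM at 6 h and did not pass (adjusted p = 0.787), and RPL39 was the other gene that did not pass, except in a fit to the U libraries alone (adjusted p = 0.00533).

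Most cytosolic ribosomal proteins of yeast are made from a pair of near-identical genes. Of 57 such pairs tested, 12 had members whose log2 fold changes differed by at least 1, and the median difference was 0.57. RPL9A held 22% and 17% at 12 h, against 78.7% and 79.2% at 6 h, of the FPKM of its pair with RPL9B, with log2 fold changes of -5.11 for RPL9A and -1.16 for RPL9B. RPL9B did not pass without 12 h replicate 1 or either 6 h library (adjusted p of 0.0558 to 0.074). RPL14A held 37.2% and 36.1% at 12 h, against 76.9% and 74.7% at 6 h, of its pair and RPS22A 45.4% and 46.1% at 12 h, against 76.6% and 76.9% at 6 h. RPS26A moved the other way and held 88.5% and 89% at 12 h, against 66.1% and 63.1% at 6 h, of its pair with RPS26B, with log2 fold changes of -2.54 for RPS26A and -4.64 for RPS26B. In each pair the libraries of a time had similar shares and the times did not overlap. Of the windows of 100 bases of the first gene, 2.31% for RPL9A, 17.3% for RPL14A and none for RPS22A or RPS26A occur in the partner, and in 16 of the 57 pairs some windows are shared, so reads could be split wrongly there.

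Transcripts for ribosome assembly fell as well. Of 109 ribosome biogenesis genes 101 fell and none rose, with a median of -1.83. NOP58, a core protein of the box C/D small nucleolar RNPs, fell to 53.3 and 44.6 FPKM at 12 h, against 425 and 675 FPKM at 6 h (log2 fold change -3.43, SE 0.35, adjusted p = 0.000592). NOP1, fibrillarin, fell to 84.7 and 72.9 FPKM at 12 h, against 660 and 1006 FPKM at 6 h (log2 fold change -3.36, SE 0.35, adjusted p = 0.000633). Both 12 h libraries were low and close, while at 6 h replicate 2 was higher. All 109 genes were higher in replicate 2 at 6 h, by a median of 0.63 on the log2 scale; 60 passed without 6 h replicate 2 and 56 without 12 h replicate 2. NSR1, nucleolin, and DBP2, a helicase, fell, with log2 fold changes of -3.66 and -5.75, and neither passed without 12 h replicate 2 or 6 h replicate 2 (adjusted p of 0.083 to 0.0969). Of 29 genes of RNA polymerases I and III and their factors 15 fell, RPA49 and RPA135 of polymerase I with log2 fold changes of -3.18 and -2.63, and 1 rose: MAF1, the repressor of polymerase III, by 0.78. Of 11 subunits of RNA polymerase II 9 fell, RPB5 most, with a log2 fold change of -1.94; RPB4 had 0.23 and did not pass.

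The elements PAC, GATGAG, and RRPE, AAAATTTT, are known from promoters of ribosome biogenesis genes. Searched on both strands from 250 bases before to 50 after the start, PAC stood in 90.8% of the 109 ribosome biogenesis genes and in 75.9% of the 29 genes of polymerases I and III, against 19.9% of all 5749 genes. RRPE stood in 78.9% of the ribosome biogenesis genes and 9.25% of all. Among genes that fell at least 4-fold 30.5% held PAC and 24.9% RRPE, and among those that rose as much 16.4% and 2.64%. Ribosomal protein genes held PAC in 11.2% and RRPE in 6.72%. Stretches of 4 genes are shown because the element marked nearly the whole group; capitals mark GATGAG or its reverse complement CTCATC. The matches shown begin at 187 bases before the start codon of NSR1, 122 in NOP58, 204 in NOP1 and 130 in RPA49.
NSR1 (chrVII:807823-807858, minus strand): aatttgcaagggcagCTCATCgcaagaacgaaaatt
NOP58 (chrXV:898462-898497, minus strand): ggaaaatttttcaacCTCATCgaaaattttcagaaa
NOP1 (chrIV:427145-427180, plus strand): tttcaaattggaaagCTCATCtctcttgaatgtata
RPA49 (chrXIV:182718-182753, minus strand): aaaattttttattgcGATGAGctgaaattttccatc

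Transcripts of the translation machinery followed. Of 39 translation factors 37 fell (median -1.48) and all 22 cytosolic tRNA synthetases fell (median -1.78). YEF3, elongation factor 3, fell to 200 and 139 FPKM at 12 h, against 1725 and 2592 FPKM at 6 h (log2 fold change -3.66, SE 0.38, adjusted p = 0.000625). KRS1, lysyl-tRNA synthetase, fell to 128 and 113 FPKM at 12 h, against 782 and 1237 FPKM at 6 h (log2 fold change -3.02, SE 0.33, adjusted p = 0.000707), and the smallest fall in that group was that of DPS1 at -0.61, which did not pass without either 12 h library or 6 h replicate 2 (adjusted p of 0.0969 to 0.21). CAM1, a subunit of elongation factor 1B, rose by 0.52, a call that was lost with both other scalings (adjusted p = 0.142 and 0.0751) and without each U library (0.0634 to 0.164).

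**Figure D4:**
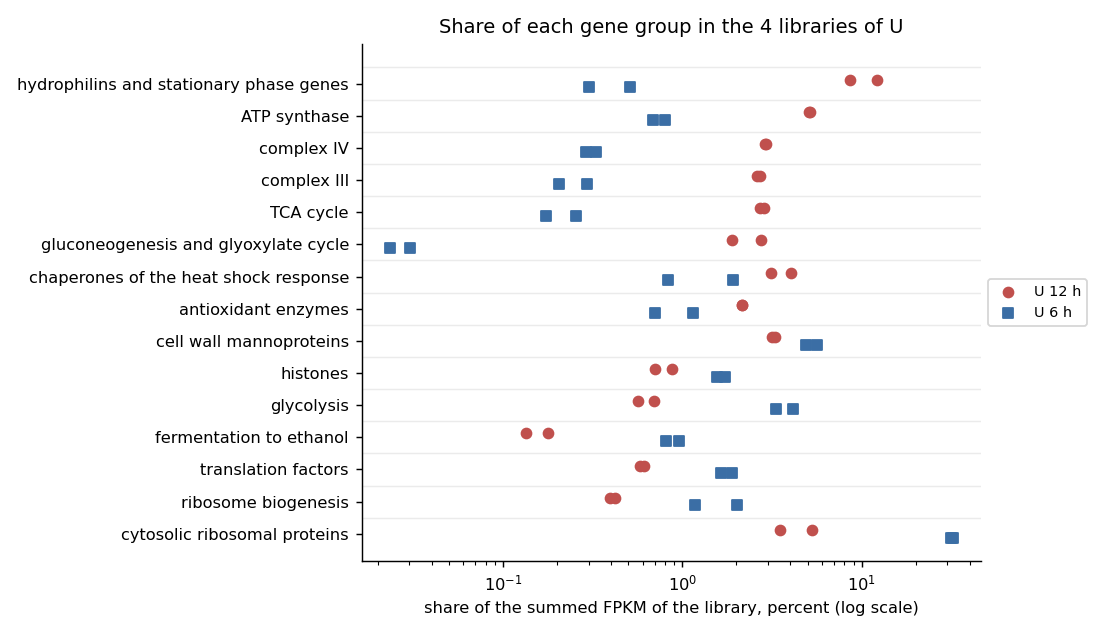
Share of the summed FPKM of a library (percent, log axis) held by 15 gene groups in the 4 U libraries, with 12 h as circles and 6 h as squares. The ribosomal protein genes stood at 3.49 and 5.31% at 12 h and at 32.1 and 31.3% at 6 h, and the hydrophilins and stationary phase genes at 12.1 and 8.61% at 12 h and at 0.509 and 0.303% at 6 h.

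Transcripts of hydrophilins, small proteins that protect dried or stressed cells, and of genes known from stationary phase rose in 28 of 32 cases (median 3.84). They held 12.1% and 8.61% of the summed FPKM at 12 h, against 0.509% and 0.303% at 6 h. GRE1, a hydrophilin, stood at 2660 and 1370 FPKM at 12 h, against 8.01 and 7.16 FPKM at 6 h (log2 fold change 7.80, SE 0.44, adjusted p = 9.78e-05), and SPG1 and SPG4, named for survival in stationary phase, rose by 8.62 and 9.91. SPI1, RTC3, PNS1 and RIM15 did not pass with all libraries. With single U libraries left out 17 to 25 of the group passed, 17 of them without 12 h replicate 1.

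Chaperones of the heat shock response were mixed. Of 36 genes 8 rose and 4 fell, smaller shares than the 33.5% and 21.7% of all genes, with a median of 1.40. That median was 2.20 without 6 h replicate 1 and 0.22 without 6 h replicate 2. HSP26, a small heat shock protein, stood at 22292 and 16254 FPKM at 12 h, against 497 and 153 FPKM at 6 h (log2 fold change 6.10, SE 1.03, adjusted p = 0.00367), and SSA3, an Hsp70 of the stress response, at 1571 and 575 FPKM at 12 h, against 24.5 and 21.9 FPKM at 6 h (log2 fold change 5.30, SE 0.54, adjusted p = 0.000594). SSB1 and SSB2, the ribosome-bound Hsp70 pair, fell, with log2 fold changes of -3.65 and -2.19. HSP82, the inducible Hsp90, stood at 2135 and 1516 FPKM at 12 h, against 1025 and 23.6 FPKM at 6 h and did not pass (adjusted p = 0.21). Its 6 h libraries differed by far more than the times did, and 32 of the 36 genes were higher in replicate 1 at 6 h, by a median of 1.83 on the log2 scale, against 0.21 at 12 h. Without both 6 h libraries numbered 1, of U and of S, 26 of the 36 rose; 13 rose without 6 h replicate 1 of U alone, and 5 without 12 h replicate 1. What made the 6 h libraries differ was not tested.

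The genes for stores of sugar shared this unevenness. At 6 h all 7 trehalose genes and all 15 glycogen genes were higher in replicate 1, by medians of 1.28 and 0.97. The median change of the trehalose genes was 1.59, but 0.35 without 6 h replicate 2. Of the trehalose genes 2 rose, both hydrolases: ATH1, the acid trehalase, at 93.1 and 99.2 FPKM at 12 h, against 12.2 and 5 FPKM at 6 h (log2 fold change 3.45, SE 0.48, adjusted p = 0.00179), and NTH2 by 1.59, which did not pass without either 12 h library or 6 h replicate 2 (adjusted p of 0.0933 to 0.121). TPS1 and TPS2, which make trehalose, had 0.89 and 0.81 and did not pass. The 2 rises among 7 trehalose genes were a smaller share than the 33.5% of all genes that rose. With all libraries 9 of the 15 glycogen genes rose, with a median of 2.29. That median was 1.54 without 6 h replicate 2 and 3.15 without both 6 h libraries numbered 1. In the latter setting the median of the trehalose genes was 2.01. GDB1, the debranching enzyme, rose to 113 and 58.2 FPKM at 12 h, against 9.24 and 6.77 FPKM at 6 h (log2 fold change 3.20, SE 0.43, adjusted p = 0.00151), and PGM1, the minor phosphoglucomutase, fell by 1.63.

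Antioxidant enzymes rose in 19 of 31 cases and fell in 3. GPX1, a peroxidase, stood at 1041 and 998 FPKM at 12 h, against 52.1 and 29.4 FPKM at 6 h (log2 fold change 4.67, SE 0.49, adjusted p = 0.000633), and SOD2, the superoxide dismutase of the mitochondrion, at 3839 and 3786 FPKM at 12 h, against 601 and 292 FPKM at 6 h (log2 fold change 3.18, SE 0.48, adjusted p = 0.00242). CTA1, the peroxisomal catalase, rose by 3.83, and CTT1, the cytosolic one, by 3.99, which did not pass without 12 h replicate 1 or 6 h replicate 2 (adjusted p = 0.0898 and 0.0804). The falls were those of TRX1 and TRR1, of the cytosolic thioredoxin system, at -0.67 and -1.54, of which TRX1 did not pass without 12 h replicate 1 or either 6 h library (adjusted p of 0.0599 to 0.0683), and of GPX2 at -1.86, which did not pass without either 12 h library or 6 h replicate 1 (adjusted p of 0.125 to 0.177). With both other scalings 6 of these genes fell, and without 12 h replicate 1 or without 6 h replicate 1 there was 1 fall.

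The element AGGGG, read by Msn2 and Msn4, was searched on both strands from 250 bases before to 50 after the start. It stood in 39.8% of 493 genes that rose at least 4-fold, in 13.5% of 341 that fell as much and in 21.9% of all 5749 genes. In the 500 bases before the start codon the shares were 55.8%, 26.7% and 34.3%. Its reverse complement CCCCT can form part of a match to the carbon source responsive element, so these searches are not independent. Stretches of 3 stress genes are shown because HSP12 and SIP18 gave the most abundant transcripts at 12 h and CTT1 is a textbook target; capitals mark the match named, AGGGG or its reverse complement, and a further AGGGG at the start of the CTT1 stretch is in lower case. The matches shown begin at 435 and 377 bases before the start codon of HSP12, at 369 in SIP18 and at 363 in CTT1. They lie within the 500 bases only.
HSP12 (chrVI:106806-106840, plus strand): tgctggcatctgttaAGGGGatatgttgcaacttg
HSP12 (chrVI:106864-106898, plus strand): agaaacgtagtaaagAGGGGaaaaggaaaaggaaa
SIP18 (chrXIII:610632-610666, plus strand): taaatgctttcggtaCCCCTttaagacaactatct
CTT1 (chrVII:654256-654290, plus strand): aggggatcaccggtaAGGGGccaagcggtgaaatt

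Many reactions of central metabolism can be run by either of a pair of related genes, and the balance within such pairs shifted. The share of the first-listed gene in the FPKM of both genes of a pair was compared between the times. In 29 of 31 pairs this share was higher in both 12 h libraries than in both 6 h libraries. In 18 it lay above 50% at 12 h and below 50% at 6 h. ENO1 held 85.4% and 81% at 12 h, against 20.9% and 18.7% at 6 h, of the enolase FPKM beside ENO2. GND2 held 65.6% and 53.4% at 12 h, against 0.932% and 0.494% at 6 h, of the pair with GND1, phosphogluconate dehydrogenase. MPC3 held 67.8% and 72.8% at 12 h, against 1.11% and 0.844% at 6 h, of the pair with MPC2, subunits of the pyruvate carrier. In all 3 the minor gene of 6 h was the major gene of 12 h. A larger share was not always a rise. GND2 and MPC3 rose by 5.27 and 6.61, but ENO1 had -2.27 beside -6.58 for ENO2, and both were called lower. Among the 29 pairs GPP2 and SSB2 also fell, at -1.42 and -2.19, and several first genes did not pass, such as ADE16 at 0.47. AAC1 held 99.9% and 99.8% at 12 h, against 47.9% and 50.3% at 6 h, of the pair with AAC3, ODC1 95.8% and 97.4% at 12 h, against 24.8% and 12.5% at 6 h, of the pair with ODC2 and ADE16 89.9% and 86.6% at 12 h, against 23.1% and 8.81% at 6 h, of the pair with ADE17. TDH2 went the other way beside TDH3, at 4.66% and 5.66% at 12 h, against 12.5% and 18% at 6 h. CYC1 beside CYC7 was the remaining exception, at 87.9% and 95.8% at 12 h, against 73.5% and 91.9% at 6 h, with overlapping times. The pairs and their order were chosen with earlier results of these data known, so the counts describe this set and do not test it.

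**Figure D5:**
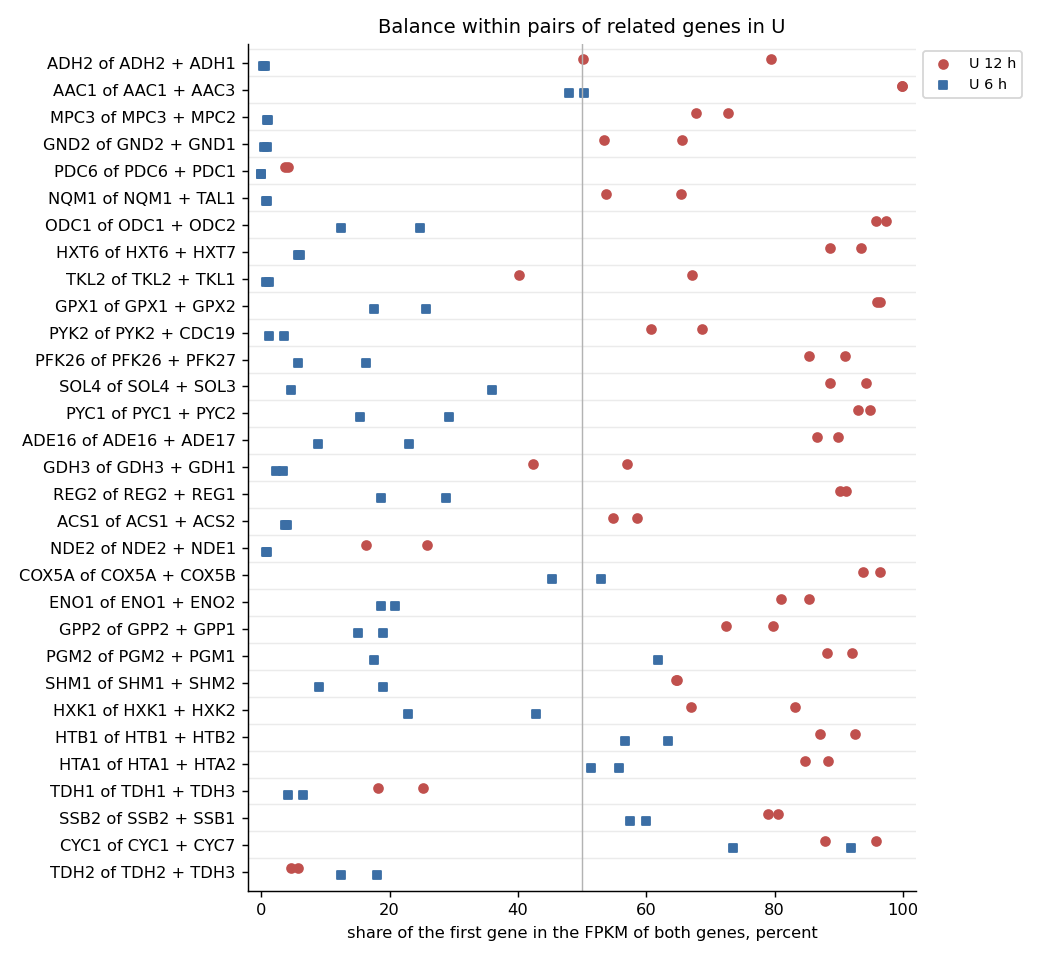
Share (percent, x axis) of the first-named gene in the FPKM of both genes of 31 pairs in the 4 U libraries, with 12 h as circles and 6 h as squares, ordered by the difference of the log2 fold changes. The circles lie right of both squares in 29 pairs; TDH2 lies left of them at 12 h, and HXT6 and HXT7 are nearly identical in sequence.

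Glycerol and pentose phosphate genes were split by member. Among 11 glycerol genes 4 rose and 4 fell, against 33.5% and 21.7% of all genes. STL1, the glycerol importer, rose to 684 and 566 FPKM at 12 h, against 5.84 and 6.7 FPKM at 6 h (log2 fold change 6.42, SE 0.15, adjusted p = 6.18e-06), and GUT1 and GUT2, which feed glycerol into respiration, rose by 3.64 and 4.41. GPP1, which makes glycerol, fell to 44.6 and 43.9 FPKM at 12 h, against 1651 and 2155 FPKM at 6 h (log2 fold change -5.38, SE 0.35, adjusted p = 0.000147), with GPD2 and GPP2 at -1.10 and -1.42; GPP2 did not pass without 12 h replicate 2 or either 6 h library (adjusted p of 0.0615 to 0.103). Of the 11 glycerol genes 4 fell, and 2 without 6 h replicate 1. NQM1, a transaldolase, and TKL2, a transketolase, rose by 6.18 and 4.70, while GND1, SOL3 and TKL1, the forms prevailing at 6 h, fell, with log2 fold changes of -2.10, -2.88 and -1.99.

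Transcripts of anabolic pathways fell, with exceptions. Of 59 amino acid synthesis genes 34 fell and 6 rose (median -1.01). HIS1, the first enzyme of histidine synthesis, fell to 82.6 and 77.6 FPKM at 12 h, against 640 and 1393 FPKM at 6 h (log2 fold change -3.54, SE 0.47, adjusted p = 0.00143), and SER2, of serine synthesis, to 14.5 and 25.2 FPKM at 12 h, against 192 and 191 FPKM at 6 h (log2 fold change -3.25, SE 0.34, adjusted p = 0.000651). BAT1, the mitochondrial branched-chain aminotransferase, fell by 2.87 while its cytosolic partner BAT2 rose by 1.55. Without 12 h replicate 1 or without 6 h replicate 1 there were 3 rises. GCN4, the activator of these genes, which is known to be controlled at translation, rose in transcript level to 4297 and 4012 FPKM at 12 h, against 1949 and 1918 FPKM at 6 h (log2 fold change 1.10, SE 0.15, adjusted p = 0.00174). At 6 h the group was lower in replicate 1 in 50 of 59 genes, by a median of 0.70 on the log2 scale. Of 17 purine synthesis genes 15 fell (median -2.76), among them ADE17, of the last steps to IMP, at 33.1 and 42.7 FPKM at 12 h, against 798 and 1810 FPKM at 6 h (log2 fold change -4.96, SE 0.40, adjusted p = 0.000271). IMD4 and IMD3, IMP dehydrogenases, fell, with log2 fold changes of -4.36 and -3.44; IMD4 holds the small nucleolar RNA SNR54 in an intron. SHM2, cytosolic serine hydroxymethyltransferase, fell by 3.59 among 9 falls in 14 one-carbon genes, of which 4 fell without 12 h replicate 1 and 5 without 12 h replicate 2.

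Sulfate assimilation and methionine genes moved both ways, with 10 rises and 6 falls in 27 genes, shares near the 33.5% and 21.7% of all genes. SAM1 and SAM2, S-adenosylmethionine synthetases, fell, with log2 fold changes of -5.93 and -2.28. With quantile normalization there were 7 rises and 12 falls, and without 12 h replicate 2 there were 5 rises. Of 29 genes of nitrogen use 15 rose and 1 fell. PUT4, a proline permease, rose to 296 and 702 FPKM at 12 h, against 1.25 and 0.81 FPKM at 6 h (log2 fold change 7.82, SE 0.59, adjusted p = 0.000229), and PUT1, proline oxidase, rose by 5.71. GDH2, which releases ammonium from glutamate, rose by 4.22, and GAP1, the general amino acid permease, by 3.18. ASP1, cytosolic asparaginase, was the fall, at -2.38.

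Membrane lipid genes fell in part. Of 26 ergosterol genes 10 fell and 2 rose, with ERG6, sterol methyltransferase, falling to 86.4 and 129 FPKM at 12 h, against 487 and 547 FPKM at 6 h (log2 fold change -2.28, SE 0.23, adjusted p = 0.000607); 5 fell without 6 h replicate 2 and 6 without 12 h replicate 1. With median-of-ratios scaling 16 fell. ELO2 and ELO3, fatty acid elongases, fell, with log2 fold changes of -2.80 and -3.12. OLE1, the delta-9 desaturase, stood at 1368 and 2089 FPKM at 12 h, against 729 and 4461 FPKM at 6 h, where the 6 h libraries bracketed both 12 h libraries.

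Of 30 genes of mitosis and cell separation 23 fell (median -0.83), and 15 fell without 6 h replicate 2. SUN4, of septum separation, fell to 60.6 and 83.3 FPKM at 12 h, against 389 and 466 FPKM at 6 h (log2 fold change -2.57, SE 0.25, adjusted p = 0.000509). DSE2, of daughter cell separation, and CLB1, a mitotic cyclin, fell, with log2 fold changes of -2.43 and -2.10. Of 11 histone genes 7 fell and none rose. HTB2, a histone H2B gene, fell to 272 and 341 FPKM at 12 h, against 2745 and 2602 FPKM at 6 h (log2 fold change -3.13, SE 0.17, adjusted p = 8.71e-05), while HTB1, its paralog, stood at 3361 and 2278 FPKM at 12 h, against 3594 and 4513 FPKM at 6 h and did not pass (adjusted p = 0.18). Of 41 DNA replication genes 10 fell, among them RNR1, the large subunit of ribonucleotide reductase, with a log2 fold change of -2.27, a share near the 21.7% of all genes. That count was 18 and 20 with the other scalings 2 without 12 h replicate 1, and 4 without either 6 h library. CLN3, the G1 cyclin of Start, rose by 0.80 while CLN2 fell by 1.64.

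Of 35 autophagy genes 28 rose and none fell (median 1.78). With median-of-ratios scaling 27 rose and 1 fell, and with quantile normalization 26 rose and 1 fell. Fewer than 28 kept the call with any single U library left out. ATG39, a receptor for autophagy of the nuclear envelope, stood at 263 and 383 FPKM at 12 h, against 7.67 and 7.42 FPKM at 6 h (log2 fold change 5.22, SE 0.26, adjusted p = 6.51e-05), and ATG8, the ubiquitin-like protein of the autophagosome, at 802 and 687 FPKM at 12 h, against 154 and 79.4 FPKM at 6 h (log2 fold change 2.74, SE 0.48, adjusted p = 0.00427). PBI2, an inhibitor of the vacuolar protease B, rose to 4243 and 4655 FPKM at 12 h, against 292 and 174 FPKM at 6 h (log2 fold change 4.30, SE 0.32, adjusted p = 0.000217), and the proteases PRC1, PRB1 and PEP4 rose by 1.75, 1.93 and 1.45. Of 37 proteasome genes 2 rose and none fell (median -0.06): RPN4, the activator of the others, by 1.39, and BLM10 by 0.55, a call lost with both other scalings (adjusted p = 0.264 and 0.47), without 12 h replicate 1 or either 6 h library (0.0971 to 0.238), with no filter (0.0527) and in the U libraries alone (0.0765). With median-of-ratios scaling 8 proteasome genes fell. Whether autophagy and proteasome genes differ as groups was not tested.

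Among the genes of protein kinase A, TOR and the stress factors 17 of 32 rose and 3 fell, but 6 rose with median-of-ratios scaling and 10 with quantile normalization, 4 without 12 h replicate 1 or without 6 h replicate 2, 7 without 12 h replicate 2 and 11 without 6 h replicate 1. XBP1, a stress-induced repressor, rose to 94 and 92.2 FPKM at 12 h, against 11.7 and 4.32 FPKM at 6 h (log2 fold change 3.52, SE 0.56, adjusted p = 0.00293). RAS1 and TPK3, a G protein and a subunit of protein kinase A, fell, with log2 fold changes of -2.75 and -0.80.

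Surface and uptake genes changed by member. PIR3, a cell wall protein, rose to 1031 and 817 FPKM at 12 h, against 9.05 and 15.2 FPKM at 6 h (log2 fold change 6.17, SE 0.26, adjusted p = 4.04e-05), while UTR2 and CIS3, also of the wall, fell, with log2 fold changes of -4.92 and -2.72. Of 28 iron uptake genes 17 rose (median 0.82), but 14 with median-of-ratios scaling and 12 with quantile normalization. The largest rise was that of SIT1, a siderophore transporter, at 1.93, while FET4, a low-affinity transporter, fell by 1.55. PHO89, a phosphate transporter, rose by 2.56, and the acid phosphatases PHO3 and PHO5 fell, with log2 fold changes of -3.14 and -2.04. Of 16 genes for other sugars 12 rose and none fell, such as GAL3, the galactose sensor, by 3.67 and MAL33, a maltose activator, by 3.58; with quantile normalization 8 rose. Genes of early meiosis rose in 8 of 15 cases, such as RIM4, a translational repressor of meiosis, by 2.62, while IME1, the master regulator of meiosis, had 0.28 and did not pass.

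The transcript of GCR1 itself stood at 30.2 and 32.9 FPKM at 12 h, against 60.9 and 40.2 FPKM at 6 h, with a log2 fold change of -0.63 (SE 0.42) that did not pass (adjusted p = 0.234). The deletion labelled for this strain lies in GCR1, and which bases of the gene model were counted is not stated, so the FPKM of GCR1 do not check the label. GCR2, the partner of Gcr1, stood at 66.8 and 72.2 FPKM at 12 h, against 66.3 and 71.1 FPKM at 6 h (log2 fold change 0.02, adjusted p = 0.927). TYE7, another activator of glycolytic genes, fell to 138 and 109 FPKM at 12 h, against 364 and 368 FPKM at 6 h (log2 fold change -1.57, SE 0.20, adjusted p = 0.00125). RAP1 fell by 0.80 to 31.2 and 31.7 FPKM at 12 h, against 47.5 and 65.2 FPKM at 6 h, a call lost without either 12 h library or 6 h replicate 2 (adjusted p of 0.0728 to 0.0922).

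Whether the change in U differed from that in S was tested gene by gene. Of 6339 genes 5 passed (0.0789%), and 51 had an unadjusted p under 0.05. All 5 have values listed at 0 in whole groups, so that their differences rest on values of 0. With rows holding a value of 0 left out, which by construction removes these 5, no gene passed. Of the 18 glycolytic genes none passed; the median difference of their log2 fold changes, U minus S, was -1.73, against 0.04 for all genes, and 17 lay below 0. Among them CDC19 came nearest, with 25.9 and 41.2 FPKM in U at 12 h, 1279 and 1384 in U at 6 h, 416 and 378 in S at 12 h and 1785 and 1800 in S at 6 h. Its difference was -3.13 (SE 0.32, adjusted p = 0.0531). For the other genes described above, SNR18 apart, a difference between the strains in the change over time was not detected, which does not show that the strains changed alike.

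Calls were also counted by place and length of the gene. Within 20 kb of a chromosome end 51.4% of 173 genes rose and 7.51% fell, against 33.5% and 23.4% of 5142 genes farther than 50 kb from an end. Of 763 genes shorter than 0.5 kb 43.9% rose, against 31.0% of 1293 genes of 2 kb or more. These shares are counts of calls on the RefSeq R64 annotation and were not tested.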

How the data were processed

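RNA of 8 yeast libraries, 2 for each strain and time, was sequenced as paired-end poly(A)-selected libraries, per the labels' protocols. The submitters' processing notes list Cufflinks, TopHat2 2.1.1, FastQC 0.10.1 and bcl2fastq 1.8.2 with the build sacCer3; strand handling and annotation were not stated there. The values are the FPKM that the authors deposited in 1 table of 7126 rows, so the read depth is unknown and no counting interval can be given. Of the rows, 6048 matched a RefSeq R64 gene by locus tag and 114 by symbol, 964 did not, and 606 were listed at 0 in every library. No row was rescaled.

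Rows averaging 1 FPKM or more were tested as log2(FPKM + 1) with limma 3.58.1 in R 4.3.3, with 1 fit of 4 groups, empirical Bayes with trend, and Benjamini-Hochberg adjustment at 0.05; the fit had 4 residual and 2.33 prior degrees of freedom. The script was tested on simulated data. Tables were made with Python 3.11.15 and pandas 2.3.3. Named genes were the 15 largest rises and falls called with at least 10 FPKM and separate times, the 5 most abundant at each time, GCR1 and GCR2, the strain markers, the carbon regulators, and from each of 54 lists its largest changes, exceptions and genes not called. The members, lists, pairs and motifs were chosen with earlier results of these data known. Alternatives were a pseudocount of 0.1, no filter or 10 FPKM, 2 other scalings, a replicate block, no trend, the U libraries alone and each U library left out. A gene that the naming rule takes in is not reported here.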

Additional observations from a re-analysis of the deposited data

Results flagged for a closer look

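A difference between the strains in the change over time passed for 5 genes (limma, adjusted p under 0.05 for the change in U minus the change in S), and each has groups listed at 0. SNR18 had a difference of -12.09 on the log2 scale: it was listed at 0 in both U libraries at 12 h and at 4386 and 4361 FPKM in U at 6 h, and at 0 in all 4 S libraries. It lies within EFB1, and the labels do not say how reads were assigned between them. YCR038W-A had -10.23, with 0 in both U libraries at 12 h and 33.7 and 33.8 FPKM in U at 6 h, against 33.7 and 33.8 FPKM in S at 12 h and 0 in both S libraries at 6 h. YMR272W-A had -6.12, with 163 and 308 FPKM in U at 12 h and 124 and 124 in U at 6 h, against 125 and 125 in S at 12 h and 0 in S at 6 h. PLS1 had 5.79, with 0 in all 4 U libraries, 0 in S at 12 h and 58.8 and 50.4 FPKM in S at 6 h. CPP3 had 3.76, with 29.4 and 30.6 FPKM in U at 12 h and 0 in U at 6 h, against 22.8 and 22.7 in S at 12 h and 10.1 and 8.80 in S at 6 h. The sizes of these differences rest on the pseudocount where a group is listed at 0, and a listed 0 can be a failed estimate. The cause was not tested.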

How the results depend on the processing

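The 3503 genes called in U numbered 3379 to 3511 with another pseudocount, filter, scaling or trend, 3343 in a fit to the U libraries alone, and 2335 to 3001 with 1 U library left out; no called gene was called in the other direction in any of these settings. Deviations of same-numbered U libraries at 12 h and 6 h correlated at 0.0754. Those of same-numbered U and S libraries correlated at 0.375 at 12 h and 0.641 at 6 h. Libraries of the same number and time thus shared part of their deviation across the strains, and why was not tested. The main fit treats all 8 libraries as independent, so its pooled spread rests on less separate information than the 4 residual degrees of freedom state. With the replicate block 3085 genes were called, 3002 of them among the 3503, and COX5B was called lower (adjusted p = 0.0249, limma). With a block shared by both strains, added after seeing the data, 3781 were called. A replicate block within each time that both strains share was also added after seeing the data. With it none of the 18 glycolytic genes was called (limma, adjusted p of CDC19 0.0645), and 221 genes had an unadjusted p under 0.05. The differences called between the strains stayed 5 in number, of which 4 were among the 5 of the main fit. They became 2 with the replicate block, 0 without rows holding a value of 0 (limma, with 43 at an unadjusted p under 0.05), and 4 to 11 with 1 U library left out; the last setting leaves 1 sample in a group, which is assumed to vary like the others. All 5 hold values of 0, so leaving out such rows removes them by construction; for the other settings the cause was not tested. Of the 54 lists, 31 had a median above 0, and 29 to 33 did over the settings. Of 254 genes named, 209 were called, and 178 of them kept the call in every setting in which they were tested. The filter at 10 FPKM and the setting without rows holding a value of 0 did not test all named genes. The read depth is unknown, so low values carry an error that could not be estimated.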
